A study of Mus musculus with 10 samples.

Results

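The genes described are 4 secreted Frizzled-related proteins (Sfrp1, Sfrp2, Sfrp4 and Frzb), the Dickkopf family members Dkk2 and Dkk3, the Wnt-binding inhibitor Wif1, the ligand Wnt5a and the transcriptional Wnt readouts Axin2 and Lef1. They were chosen by name, as 10 of the 55486 genes in the count table, and all 10 were found there. Their levels are given as CPM, the count of a gene scaled to its library's total, in all 10 libraries. They were compared between cell types, between fibroblast subsets and between cultures.

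Wnt proteins are secreted lipid-modified ligands that bind Frizzled receptors together with the co-receptors Lrp5 and Lrp6, or with receptors of the Ror and Ryk families. Binding to Frizzled and Lrp5 or Lrp6 stabilizes β-catenin, which enters the nucleus and works with transcription factors of the Tcf and Lef family, whereas ligands such as Wnt5a mostly signal without β-catenin. Secreted Frizzled-related proteins and Wif1 bind Wnt ligands outside the cell, and Dickkopf proteins act mainly on the Lrp co-receptors. Fibroblasts are a main source of these secreted regulators in many tissues, and in the mammary gland stromal and epithelial cells exchange Wnt signals.

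The study sorted normal fibroblasts (NFs) from mammary glands of mTmG reporter mice, which were 8 weeks old, into CD26- and CD26+ subsets and asked how each subset behaves beside tumor cells. Both subsets were grown in 2D culture for a week, and the CD26+ NFs were switched from Tomato to GFP with an adenovirus that carries Cre, so exposure to virus and subset cannot be told apart. Both subsets were then mixed at equal numbers in gels of collagen and basement membrane extract for 7 days. NFs without tumor cells came from gel 1. Tumor cells without NFs came from gel 2 (line 13-MCB-17) and gel 3 (line 10-SJK-221). Both NF subsets shared gel 4 with 13-MCB-17 cells and gel 5 with 10-SJK-221 cells. The tumor lines come from a conditional mouse model of invasive lobular carcinoma (ILC), in which Cre under the Wap promoter of the mammary epithelium deletes floxed alleles, among them those of Cdh1, the gene of E-cadherin. After culture the cells were sorted by fluorescence, which gave 1 library for each subset without tumor cells, 2 for each subset with tumor cells, 2 for tumor cells alone and 2 for co-cultured tumor cells. Co-cultured and lone NFs thus differ by 2 gels against 1, and gel and culture cannot be told apart. P-values rest on the spread between gels that also differ in tumor line, and for NFs this spread is known only from gels 4 and 5. The test across both subsets counts the 2 lone NF libraries of gel 1 as separate samples. Its spread also holds any difference between the subsets in their response.

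The libraries held 14142334 to 18408940 counts, so that a count of 3 stands for 0.163 to 0.212 CPM. The 8 fibroblast markers fixed for the check summed to 69497 to 74846 CPM in NFs alone, 23317 to 41536 CPM in co-cultured NFs and at most 177 CPM in tumor libraries. The 10 epithelial markers summed to at most 1.12 CPM in NFs alone, 121 to 327 CPM in co-cultured NFs and 4233 to 5577 CPM in tumor libraries. In the shared gels this placed epithelial markers in the NF libraries at 2.72 to 6.30% of their level in the tumor library of the same gel. The 5 pericyte markers (Rgs5, Cspg4, Mcam, Kcnj8 and Abcc9) had sums of 23.0 and 34.8 CPM without tumor cells and of 85.2 to 293 CPM after co-culture. Dpp4, which encodes CD26, lay at 0.281, 0.771 and 0.283 CPM in the CD26+ NFs and at 0, 0 and 0.0575 CPM in the CD26- NFs, so the subset labels rest on the sort before culture.

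Promoter sequences are shown for the 3 genes with the widest change between cultures for which RefSeq gave a window, since their expression moved most with the gel's content. Each is the 250 bases before a start annotated by RefSeq on GRCm38.p6, all on the plus strand, with CpG dinucleotides in capitals. RefSeq gave 1 window each for Sfrp2 and Axin2 and 4 for Lef1, of which the most upstream is shown; it ends before the start of Lef1 in GENCODE M21, the source of the gene positions below. Sfrp2 lies at chr3:83766071-83766320, Axin2 at chr11:108920099-108920348 and Lef1 at chr3:131110047-131110296.
Sfrp2: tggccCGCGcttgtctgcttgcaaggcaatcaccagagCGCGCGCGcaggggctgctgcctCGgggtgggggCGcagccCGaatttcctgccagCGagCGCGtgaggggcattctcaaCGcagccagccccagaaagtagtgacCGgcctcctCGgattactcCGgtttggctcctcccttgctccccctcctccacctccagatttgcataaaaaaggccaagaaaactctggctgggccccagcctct
Axin2: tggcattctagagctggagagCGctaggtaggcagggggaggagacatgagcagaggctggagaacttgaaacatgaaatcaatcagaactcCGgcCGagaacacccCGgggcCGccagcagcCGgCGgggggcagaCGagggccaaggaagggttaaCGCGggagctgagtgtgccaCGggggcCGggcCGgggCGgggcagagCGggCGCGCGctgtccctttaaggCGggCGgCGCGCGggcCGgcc
Lef1: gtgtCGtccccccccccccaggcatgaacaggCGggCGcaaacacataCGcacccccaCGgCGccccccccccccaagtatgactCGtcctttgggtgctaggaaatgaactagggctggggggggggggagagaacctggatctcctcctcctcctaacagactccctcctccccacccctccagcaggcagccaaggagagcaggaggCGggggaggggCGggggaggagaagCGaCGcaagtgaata
The windows hold 16, 24 and 11 CpG dinucleotides, beside a median of 6 over all 32851 mouse promoter windows. A RefSeq window of 300 bases was found for 6 of the 10 genes (Sfrp2, Frzb, Dkk2, Wif1, Axin2 and Lef1). The Tcf and Lef core letters CTTTGAA or CTTTGAT, searched on both strands, occur in 8.65% of all windows and in 0 of the 9 windows of these 6 genes.

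**Figure D1:**
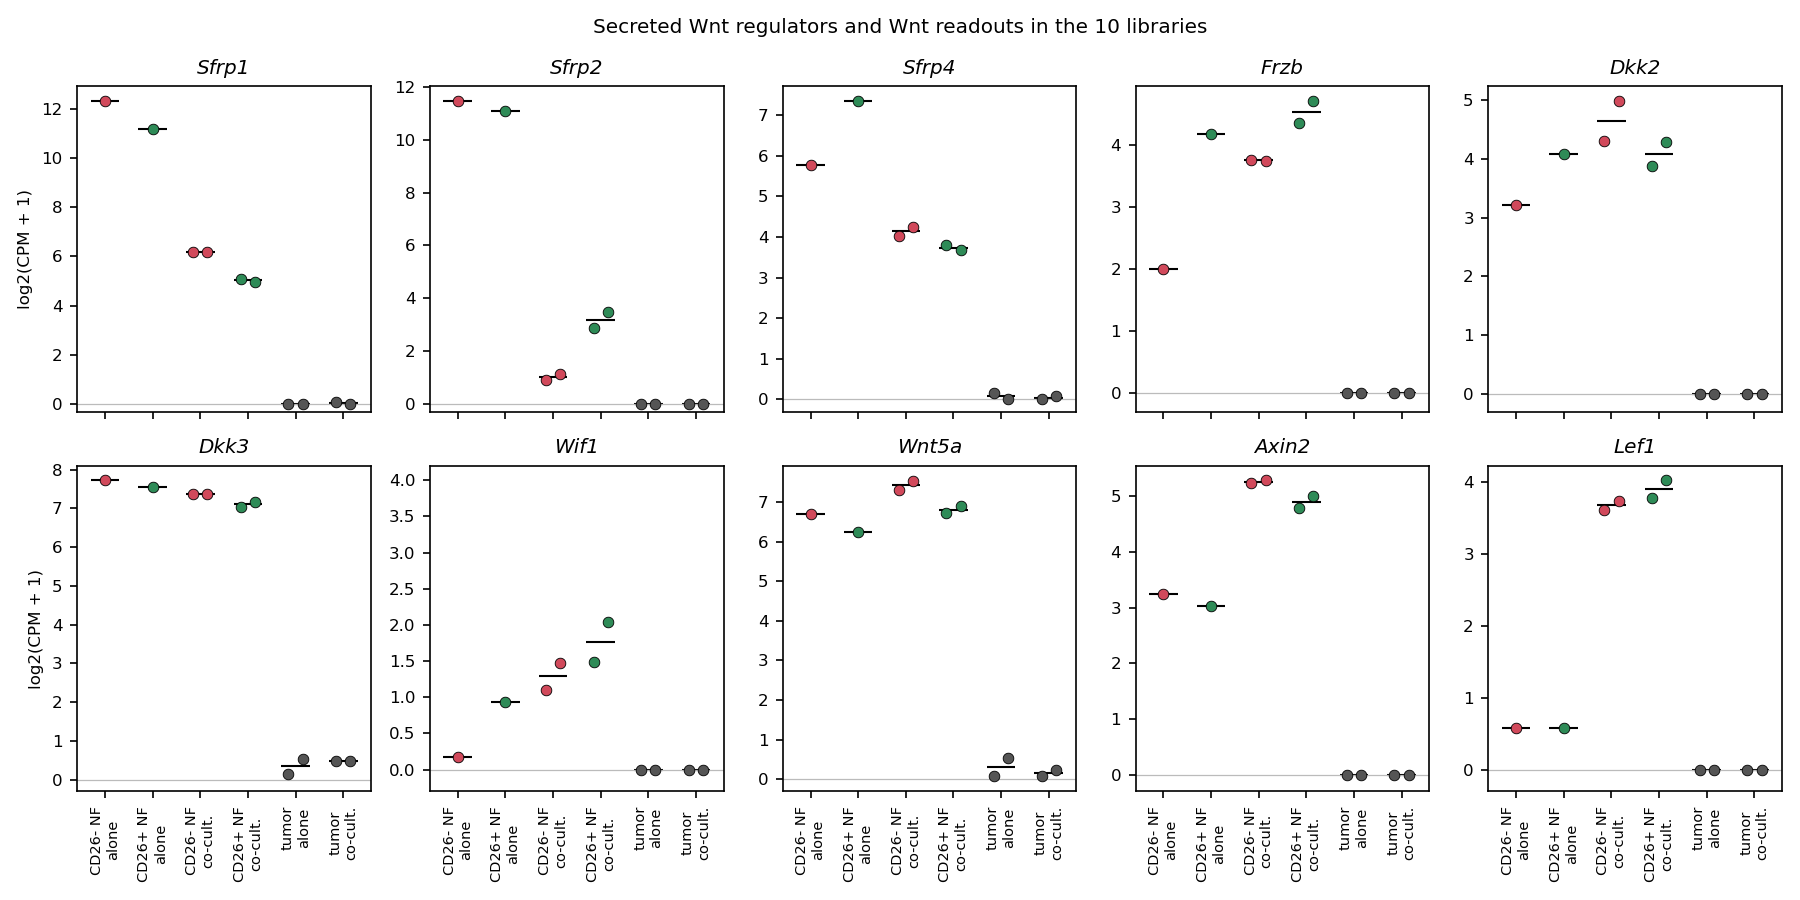
Level of each gene in the 10 libraries as log2(CPM + 1), with 1 point per library (red CD26- NFs, green CD26+ NFs, grey tumor cells) and a bar at the mean of the points. All tumor libraries sit at or near 0, Sfrp1 and Sfrp2 reach 2195 CPM or more only in NFs alone, and Axin2 and Lef1 lie higher in every co-cultured NF library than in either NF library without tumor cells.

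All 10 genes were expressed almost solely in the fibroblast libraries. Every NF library lay above every tumor library for each of them, and Sfrp2, Frzb, Dkk2, Wif1, Axin2 and Lef1 had 0 counts in all 4 tumor libraries. Sfrp1 reached at most 1 count, Sfrp4 at most 2 counts, Dkk3 2 to 7 counts and Wnt5a 1 to 7 counts in a tumor library. Fibroblast markers in the co-cultured tumor libraries stood at 0.301 and 0.578% of the mean of the NF libraries of the same gel, and the part of such RNA in the few counts of Dkk3 and Wnt5a was not tested.

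With no tumor cells in the gel, Sfrp1, Sfrp2 and Sfrp4 had the largest bounds or ratios between the cell types, where a bound also depends on the level in NFs. Taking a count of 3 per library as the limit where tumor cells had 0 counts, the level in NFs alone was at least 20872-fold higher for Sfrp1 and at least 14217-fold higher for Sfrp2 than in tumor cells alone. The bounds were 68.7-fold for Dkk2, 56.4-fold for Frzb and 44.1-fold for Axin2, whereas the low levels of Wif1 and Lef1 allowed bounds of only 2.93-fold and 2.79-fold. Sfrp4 was 1787-fold higher, with a 95% exact counting interval of 494 to 14759 that covers counting error only, because 2 counts stand in the denominator. The ratio of mean CPM was 715 for Dkk3 and 353 for Wnt5a. In the shared gels the bounds were 195-fold for Axin2, 120-fold for Dkk2, 102-fold for Frzb, 75.7-fold for Lef1, 26.9-fold for Sfrp2 and 11.5-fold for Wif1, and the ratios were 1239 for Wnt5a and 380 for Dkk3. Sfrp1 and Sfrp4 each had 1 count in the co-cultured tumor libraries, which gave ratios of 1854 (95% exact counting interval 333 to 73251) for Sfrp1 and 518 (92.7 to 20472) for Sfrp4. All 10 genes entered the fit of NFs against tumor cells only through the NF libraries, and 6 of them had 0 counts in all 4 tumor libraries, so the calls of edgeR's quasi-likelihood test, with Benjamini-Hochberg adjustment over all genes, which were higher in NFs for all 10 in both cultures, are given as a description. Over all 17048 genes tested, 55.5% were called between NFs and tumor cells grown alone and 28.4% were higher in NFs, and in the shared gels these shares were 51.8% and 27.7%. Wif1 carried the highest adjusted p, 0.0215 alone and 0.00111 in shared gels, and its call was lost without gel 2 or gel 3 (adjusted p = 0.0598 and 0.0524) and without gel 4 or gel 5 (adjusted p = 0.0569 and 0.0813). None of the 10 genes passed the filter on low counts among the 4 tumor libraries, so no test compared tumor cells with and without NFs.

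Among the Frizzled-related proteins, Sfrp1, Sfrp2 and Sfrp4 fell in NFs beside tumor cells, and Frzb (also named Sfrp3) rose. Their summed level was 7962 CPM in CD26- and 4690 CPM in CD26+ NFs alone, or 0.796% and 0.469% of all counts, and 71.2 to 102 CPM in the 4 co-cultured NF libraries. Across both subsets, 9 of the 10 genes passed the test between co-cultured and lone NFs, 5 higher and 4 lower, beside 48.8% of 15013 genes tested, 25.9% higher and 22.9% lower. Wif1 and Lef1 passed the filter on low counts only through the co-cultured libraries, as 12.8% of all genes tested did, so the count is a description. The ranges of the cultures did not overlap for 8 of the 10 genes and for 53.9% of genes tested. Within CD26- NFs 9 of the 10 genes were called, 6 higher and 3 lower, beside 30.8% of 16231 genes, and within CD26+ NFs 6, 3 in each direction, beside 34.2%. Each subset had 1 library without tumor cells, so these tests assume that the lone library varies as the co-cultured libraries do. The median log2 fold change was 0.75 over the 10 genes and 0.02 over all genes tested.

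Sfrp1 lies on chromosome 8 (23411502 to 23449632, plus strand) and encodes an inhibitor that binds Wnt ligands and Frizzled receptors. Its level without tumor cells was 5070 CPM in CD26- and 2315 CPM in CD26+ NFs. Beside tumor cells (gels 4 and 5) the CD26- libraries held 71.6 and 70.6 CPM, the CD26+ libraries 32.7 and 30.4 CPM. All co-cultured libraries lay far below both libraries of NFs alone. The log2 fold change was -6.13 (SE 0.149, adjusted p = 1.55e-08) across subsets, -6.09 (SE 0.232) in CD26- NFs and -6.16 (SE 0.234) in CD26+ NFs.

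Sfrp2, on chromosome 3 (83766321 to 83774316, plus strand), encodes a related inhibitor. It stood at 2835 CPM in CD26- and 2195 CPM in CD26+ NFs alone. In gels 4 and 5 it fell to 0.848 and 1.15 CPM in the CD26- subset, that is 14 and 20 counts, and to 6.30 and 10.0 CPM in the CD26+ subset. The groups by culture were separated by more than any other of the 10 genes, and within co-culture the CD26- libraries were the lowest. The log2 fold change was -9.58 (SE 0.617, adjusted p = 2.96e-06) across subsets. Of its exon bases 16.1% overlap the antisense gene Gm26771, which had 73 and 117 counts in NFs alone against 45662 and 31275 counts of Sfrp2, and at most 1 count in co-culture.

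Sfrp4, on chromosome 13 (19623104 to 19632994, plus strand), had 53.8 CPM in CD26- and 162 CPM in CD26+ NFs alone. After co-culture the CD26- libraries held 15.4 and 18.1 CPM, the CD26+ libraries 12.9 and 11.7 CPM. The libraries of NFs alone differed from each other while the co-cultured ones lay close together. The log2 fold change was -2.75 (SE 0.361, adjusted p = 0.000223) across subsets.

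Frzb, on chromosome 2 (80411970 to 80447625, minus strand), is the member of this family best known from cartilage. It had 2.98 CPM in CD26- NFs alone and 12.5 and 12.4 CPM after co-culture, and it had 17.0 CPM in CD26+ NFs alone and 19.3 and 25.2 CPM after co-culture. The CD26- NFs moved upward by a clear step, and the ranges of the cultures overlapped once the subsets were pooled. In CD26- NFs the log2 fold change was 2.12 (SE 0.314, adjusted p = 0.000169). In CD26+ NFs it was 0.43 (95% interval -0.13 to 0.99) and was not called (adjusted p = 0.22). Across subsets it rose by 1.10 (SE 0.335, adjusted p = 0.0217), a call that was lost without gel 5 (adjusted p = 0.104).

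The Dickkopf genes did not follow the Frizzled-related proteins. Dkk3, on chromosome 7 (112116017 to 112159057, minus strand), is a divergent family member with a debated part in Wnt signaling, and it had the narrowest range of the 10 genes. It lay at 210 and 186 CPM in CD26- and CD26+ NFs alone. After co-culture both CD26- libraries held 165 CPM, and the CD26+ libraries of gels 4 and 5 held 131 and 143 CPM. The co-cultured libraries were below both others, and the log2 fold change across subsets was -0.35 (SE 0.122, adjusted p = 0.0392), but it was not called in either subset by itself. This call was lost without gel 4 (adjusted p = 0.116), without gel 5 (adjusted p = 0.0921) and with no filter on low counts (adjusted p = 0.066).

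Dkk2, on chromosome 3 (132085292 to 132180304, plus strand), encodes a ligand of the Lrp co-receptors. It had 8.32 CPM in CD26- NFs alone and 18.8 and 30.9 CPM after co-culture, against 16.0 CPM in CD26+ NFs alone and 13.7 and 18.5 CPM after co-culture. It rose in CD26- NFs (log2 fold change 1.66, SE 0.347, adjusted p = 0.00253), a call that was lost when the CD26+ library of gel 4 was left out of the shared fit (adjusted p = 0.0551). In CD26+ NFs the log2 fold change was 0.05 (95% interval -0.64 to 0.75), and no change was called (adjusted p = 0.916). Across subsets it was 0.78 (SE 0.367, adjusted p = 0.105), which passed the threshold without gel 4 (adjusted p = 0.0392).

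Wif1, on chromosome 10 (121033960 to 121100650, plus strand), was the least abundant of the inhibitors in NFs alone. It had 2 and 13 counts in CD26- and CD26+ NFs alone, 19 and 31 counts in co-cultured CD26- NFs and 28 and 44 counts in co-cultured CD26+ NFs. All co-cultured libraries were above both others. Across subsets the log2 fold change was 2.12 (SE 0.603, adjusted p = 0.0163 and, with no filter, 0.0156), and it was not called without gel 5 (adjusted p = 0.122). In CD26- NFs the ratio of pooled CPM was 11.9, with a 95% exact counting interval of 3.12 to 101. The call in that subset (adjusted p = 0.012) was lost without its gel 5 library (adjusted p = 0.0667), and in CD26+ NFs the log2 fold change of 1.46 was not called (adjusted p = 0.109).

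Wnt5a, on chromosome 14 (28504750 to 28527448, plus strand), is a ligand of the Ror receptors and the one Wnt ligand among the 10 genes. It had 102 and 74.5 CPM in CD26- and CD26+ NFs alone. In gels 4 and 5 the CD26- libraries held 158 and 185 CPM, the CD26+ libraries 105 and 117 CPM. The lowest co-cultured CD26+ library lay just above the CD26- NFs alone. Across subsets it rose by a log2 fold change of 0.71 (SE 0.146, adjusted p = 0.00316). The change was called in CD26- NFs (0.82, SE 0.224, adjusted p = 0.0134) and was at the threshold in CD26+ NFs (0.61, SE 0.224, adjusted p = 0.0486), where the call was lost in every alternative tried, with adjusted p of 0.0546 to 0.168 under other scaling, DESeq2, no filter or the loss of 1 library. In CD26- NFs it was lost without the CD26- library of gel 5 (adjusted p = 0.132).

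Both readouts of β-catenin-dependent transcription were higher in co-cultured NFs. Axin2, on chromosome 11 (108920349 to 108950783, plus strand), is a target of the pathway that feeds back on it by helping to degrade β-catenin. It had 8.44 and 7.16 CPM in CD26- and CD26+ NFs alone. In gels 4 and 5 it stood at 36.8 and 37.9 CPM in the CD26- subset, and at 26.8 and 31.3 CPM in the CD26+ subset. The log2 fold change was 2.13 (SE 0.167, adjusted p = 9.55e-06) across subsets, 2.21 in CD26- NFs and 2.06 in CD26+ NFs. The 4 co-cultured libraries did not overlap the libraries of NFs alone.

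Lef1, on chromosome 3 (131110471 to 131224356, plus strand), encodes a transcription factor that binds β-catenin and is itself a target of the pathway. It had 8 and 7 counts in CD26- and CD26+ NFs alone (0.497 and 0.491 CPM). In co-culture it had 185 and 215 counts in CD26- NFs and 198 and 216 counts in CD26+ NFs (11.2 to 15.3 CPM). The level was 23.7 times higher by mean CPM in CD26- NFs and 28.5 times higher in CD26+ NFs, with a log2 fold change of 4.72 (SE 0.301, adjusted p = 2.78e-06) across subsets. Neither lone library reached the 0.631 CPM that the filter asked for, so Lef1 entered this test only through the libraries where it was high, and with no filter the adjusted p was 2.41e-07. The antisense gene Lef1os1, which overlaps 13.7% of the exon bases, had at most 7 counts in any library.

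**Figure D2:**
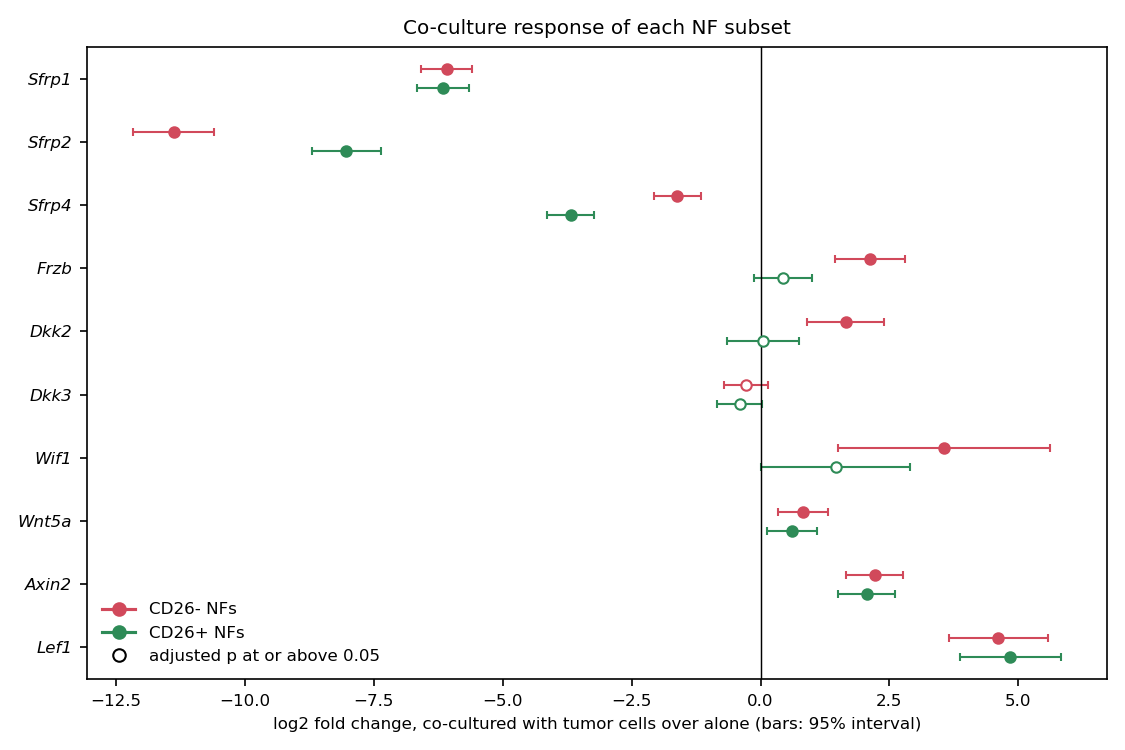
Fitted log2 fold change of each gene between NFs co-cultured with tumor cells and NFs alone, in CD26- (red) and CD26+ (green) NFs, with 95% intervals and open points where the adjusted p was 0.05 or above. Sfrp1, Axin2 and Lef1 have nearly the same change in both subsets, whereas the intervals of Sfrp2, Sfrp4, Frzb and Dkk2 do not overlap between the subsets.

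The markers of other cells moved with culture as well. Beside the rise of Axin2 and Lef1, the pericyte markers had the higher sums given above, the 5 leukocyte markers summed to 10.2 and 13.8 CPM without and 22.0 to 58.6 CPM with tumor cells, and the 5 endothelial markers to 4.60 and 9.76 CPM without and 8.06 to 24.4 CPM with them. The members of each list did not move together. Among the pericyte markers Cspg4 (2.48 and 5.97 CPM without, 59.7 to 175 CPM with tumor cells) and Mcam (2.61 and 3.30 against 16.3 to 104 CPM) carried the sum, whereas in CD26- NFs Rgs5 was at 9.25 CPM alone and at 1.88 and 3.74 CPM in co-culture, and Abcc9 at 19.9 CPM alone and at 3.94 and 9.90 CPM in co-culture. In CD26+ NFs Rgs5 was at 6.11 CPM alone and at 2.95 and 6.22 CPM in co-culture, Abcc9 at 6.32 CPM alone and at 4.30 and 8.56 CPM, and Kcnj8 at 1.33 CPM alone and at 1.99 and 3.89 CPM, so a lower level in co-culture of Rgs5 and Abcc9 in both gels was seen in CD26- NFs and not in CD26+ NFs. Among the leukocyte markers Cd68 carried the sum, with 3.48 and 6.53 CPM in NFs alone, 19.6 to 53.5 CPM in co-cultured NFs and 34.8 to 299 CPM in tumor libraries, whereas Lyz2 was at 6.02 and 4.07 CPM alone and 0.173 to 0.964 CPM in co-culture, and Ptprc, which encodes CD45, had at most 1 count in any NF library. Among the endothelial markers Pecam1 was at 0.310 and 1.26 CPM alone and at 5.93 to 9.76 CPM in co-culture, and Tek at 3.23 and 4.84 CPM alone and at 0.0575 to 1.98 CPM in co-culture. In bulk libraries, fewer cells of a type and less RNA per cell cannot be told apart, and the part of these markers in the results was not tested. All 4 tumor libraries had 0 counts of Axin2, Lef1, Frzb, Dkk2 and Wif1.

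The make-up of the 10 genes turned over with culture. Per kilobase of exon, Sfrp2 and Sfrp1 made up 51.2% and 45.1% of the summed level of the 10 genes in CD26- NFs alone, and 61.3% and 31.8% in CD26+ NFs alone. Dkk3 ranked next with 2.43% and 3.33%. In all 4 co-cultured NF libraries Dkk3 came first with 42.7 to 47.2% and Wnt5a came next with 16.0 to 20.6%. Sfrp1 ranked 3 in 3 of them with 9.06 to 15.3%, and 4 in CD26+ NFs of gel 5 with 7.44%, behind Frzb with 8.32%. Sfrp2 was last in both co-cultured CD26- libraries, at 0.37 and 0.47%, and it ranked 8 and 7 in the CD26+ libraries of gels 4 and 5, at 3.54 and 4.99%. Axin2 made up 5.90 to 6.24% in co-culture and 0.06 and 0.08% in NFs alone.

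**Figure D3:**
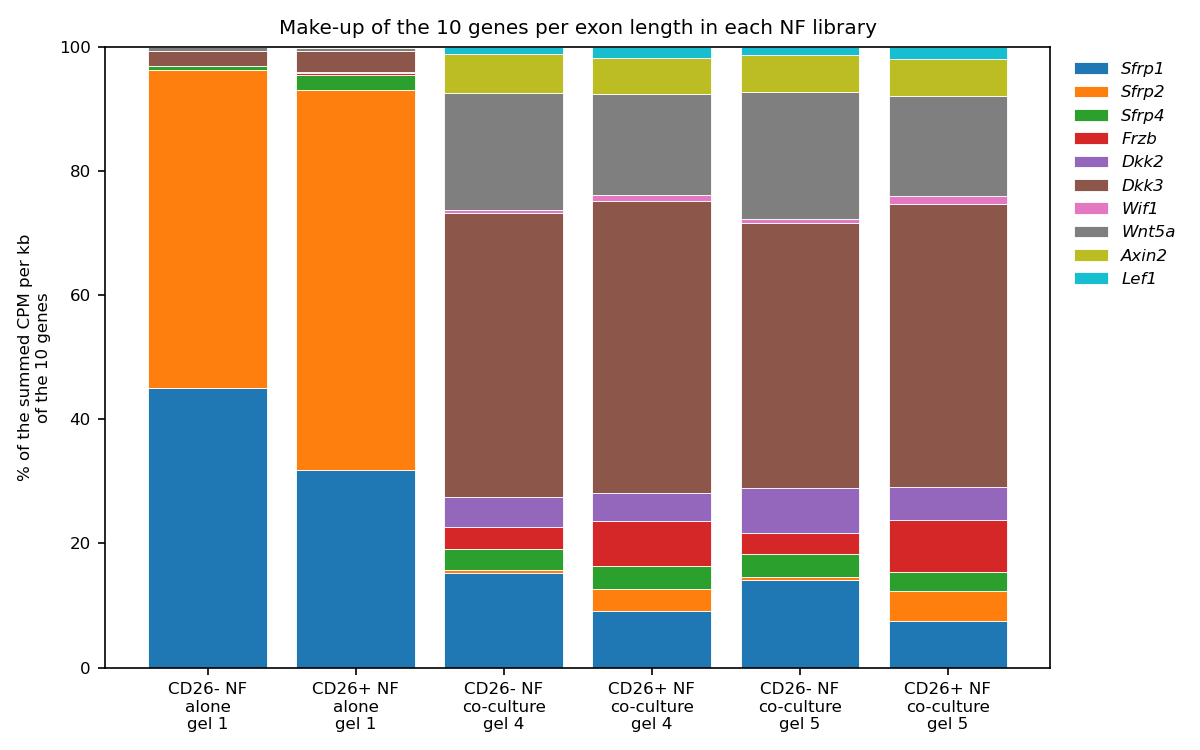
Share of each gene in the summed CPM per kilobase of exon of the 10 genes, in the 6 NF libraries. Sfrp1 and Sfrp2 fill nearly the whole bar in NFs alone, and Dkk3 and Wnt5a the largest shares in co-culture.

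Between the subsets, Sfrp1 and Wnt5a were the genes held lower in CD26+ NFs, and Frzb was held higher. Over the 3 gels that held both subsets, with culture in the model, 3 of the 10 genes were called, beside 7.53% of 15013 genes tested. Sfrp1 had a log2 fold change of -1.31 (SE 0.136, adjusted p = 0.00144), and its CPM in CD26+ NFs was 0.457, 0.457 and 0.431 of that in CD26- NFs of gels 1, 4 and 5. The ratio was close in the 3 gels, although the level differed widely between them. Wnt5a had a log2 fold change of -0.73 (SE 0.134, adjusted p = 0.0156), with CPM ratios of 0.732, 0.663 and 0.634.

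Frzb was higher in CD26+ NFs by a log2 fold change of 1.16 (SE 0.303, adjusted p = 0.0493), with CPM ratios of 5.70, 1.55 and 2.03. It was the single gene of the 10 whose 3 CD26+ libraries all lay above its 3 CD26- libraries, beside 14.4% of genes tested whose ranges did not overlap. The call for Frzb was lost without gel 1 (adjusted p = 0.0725), and the calls of Frzb, Sfrp1 and Wnt5a were all lost without gel 5, where the adjusted p were 0.309, 0.0768 and 0.204. Axin2 (log2 fold change -0.49, SE 0.141, adjusted p = 0.0662) and Dkk3 (-0.39, SE 0.117, adjusted p = 0.0725) had lower CPM in CD26+ NFs in 3 of 3 gels without passing the threshold, and DESeq2 called Dkk3 (adjusted p = 0.0292). Wif1 had a higher CPM in CD26+ NFs in 3 of 3 gels and was not called (0.93, 95% interval -0.20 to 2.07, adjusted p = 0.285). Lef1 differed by 0.06 (95% interval -0.42 to 0.53, adjusted p = 0.902).

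Sfrp2, Sfrp4 and Dkk2 had no common direction over the gels. The CPM of Sfrp2 in CD26+ NFs was 0.774 of that in CD26- NFs in gel 1, and 7.42 and 8.72 times that in gels 4 and 5. For Sfrp4 the ratios were 3.02, 0.839 and 0.650, and for Dkk2 1.92, 0.729 and 0.599. In each of these genes the gel without tumor cells stood on one side of equality and both gels with tumor cells on the other.

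**Figure D4:**
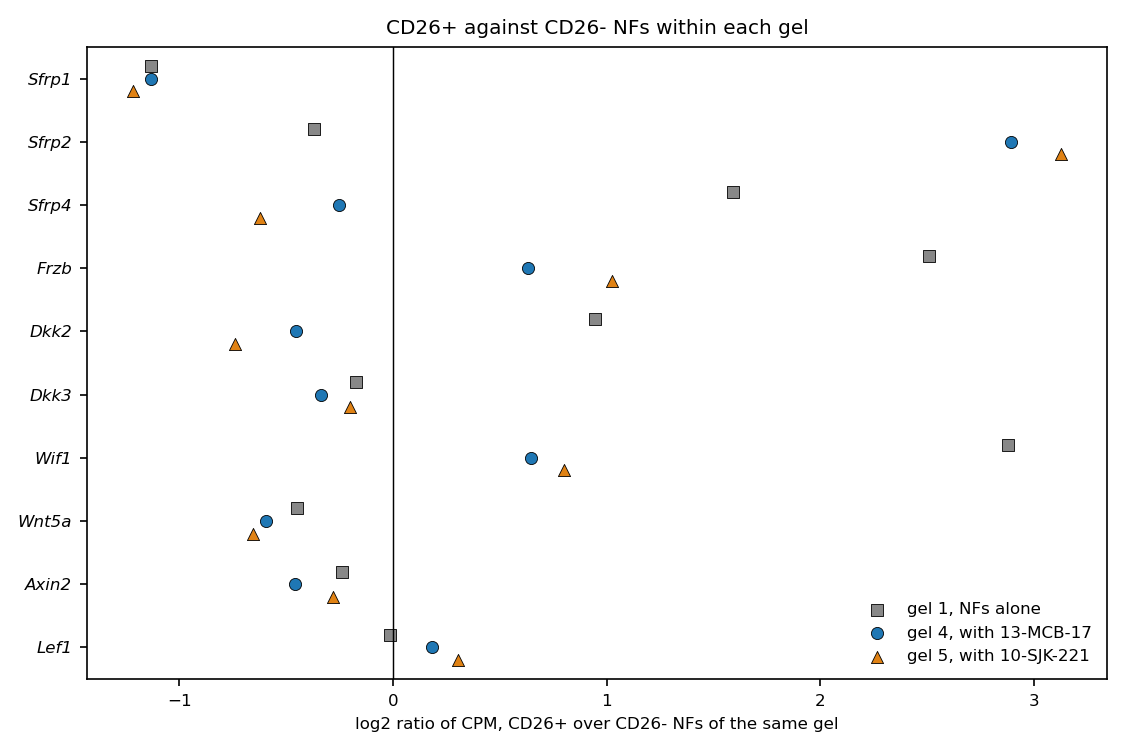
Log2 ratio of CPM between CD26+ and CD26- NFs of the same gel, for gel 1 with NFs alone (squares), gel 4 (circles) and gel 5 (triangles). Sfrp1 keeps its ratio in all 3 gels, and Sfrp2, Sfrp4 and Dkk2 change side between the gel without tumor cells and the gels with them.

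Within the gels that held tumor cells, Sfrp2 was higher and Sfrp1 and Wnt5a were lower in CD26+ than in CD26- NFs. The log2 fold changes were 2.84 for Sfrp2 (SE 0.329, adjusted p = 0.000221), -1.35 for Sfrp1 (SE 0.187, adjusted p = 0.000852) and -0.80 for Wnt5a (SE 0.178, adjusted p = 0.0163). These were 3 of 10 genes, beside 6.01% of 16231 genes tested. In co-culture the ranges of CD26- and CD26+ NFs did not overlap for any of the 10 genes, which with 2 libraries a subset was also the case for 52.2% of genes tested. With the gel as a replicate block 7 of the 10 genes were called, beside 16.7% of all genes, since Frzb (0.66, adjusted p = 0.00467), Dkk2 (-0.77, adjusted p = 0.00049), Sfrp4 (-0.60, adjusted p = 0.0167) and Axin2 (-0.53, adjusted p = 0.0173) joined them. The gel and subset terms use up most of what the 4 co-cultured libraries hold. The p-values of this block fit thus rest mostly on spread borrowed over all genes. Without the CD26+ library of gel 4 or of gel 5, 0 of the 10 were called by edgeR's test (5 and 7 at an unadjusted p under 0.05), and the adjusted p of Sfrp2 was 0.119 and 0.115. The call of Wnt5a was lost without any 1 of the 4 co-cultured libraries (adjusted p = 0.0524 to 0.355).

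The response to tumor cells differed between the subsets for Sfrp2 and Sfrp4, as tested by the interaction of subset and culture, beside 0.376% of 16231 genes called. Sfrp2 fell less in CD26+ NFs than in CD26- NFs. Its log2 fold change was -8.03 (SE 0.307) in CD26+ and -11.39 (SE 0.362) in CD26- NFs, a difference of 3.35 (SE 0.455, adjusted p = 0.00621). Sfrp4 fell further in CD26+ NFs, with -3.68 (SE 0.212) against -1.61 (SE 0.21), a difference of -2.07 (SE 0.31, adjusted p = 0.0124). Frzb (-1.69, SE 0.4, adjusted p = 0.118) and Dkk2 (-1.60, SE 0.463, adjusted p = 0.243) did not pass, and both passed with the gel as a replicate block (adjusted p = 0.000719 and 0.000464), which gave 4 of 10 genes, beside 2.43% of all genes. Here too the terms of the block fit use up most of the libraries, so its p-values rest mostly on spread borrowed over all genes. For Wif1 the difference of -2.10 had a 95% interval of -4.75 to 0.54 (adjusted p = 0.774). The responses of Sfrp1, Dkk3, Wnt5a, Axin2 and Lef1 differed between subsets by -0.21 to 0.23 on the log2 scale with no call. For Sfrp1 the 95% interval of the difference was -0.74 to 0.60, and for Axin2 -0.90 to 0.59, so differences within these bounds were not detectable with 1 library of each subset alone. Without the CD26+ library of gel 4 or gel 5 neither Sfrp2 nor Sfrp4 was called, with adjusted p of 0.637 and 0.409 for both, and without the CD26- library of gel 5 the call of Sfrp4 was lost (adjusted p = 0.0555).

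The other genes of the pathway moved widely with culture too. Of 18 other Wnt ligands 10 passed the filter in NFs, and 7 were called higher and 3 lower in co-cultured than in lone NFs, beside 25.9% and 22.9% of all genes tested. Of the 7, Wnt2b, Wnt7a, Wnt7b and Wnt10a passed the filter only through the co-cultured libraries, so the count is a description. Wnt16 fell from 17.8 and 39.6 CPM to 0.460 to 3.61 CPM (-4.23 on the log2 scale, SE 0.301, adjusted p = 5.42e-06). Wnt7b had 0 counts without tumor cells and 8.11 to 18.1 CPM in NFs beside them, at least 48.3-fold higher in CD26- and 73.5-fold higher in CD26+ NFs. Tumor libraries held 246 to 402 CPM of Wnt7b, and the level in co-cultured NFs was 2.12 to 4.72% of that in the tumor cells of the same gel, beside 2.72 to 6.30% for the summed epithelial markers. The share was below that of the markers in all 4 libraries, at 2.46 against 2.72% in gel 4 and 2.12 against 2.85% in gel 5 for CD26- NFs, and at 3.19 against 4.01% and 4.72 against 6.30% for CD26+ NFs. Wnt7a also had 0 counts without tumor cells, and its 1.27 to 2.18 CPM in co-cultured NFs were 1.90 to 2.98% of its level in the tumor cells of the same gel. Wnt10a, another of the 7, had 2 counts in 1 lone NF library and none in the other, and it was at 0.633 to 1.67 CPM in co-cultured NFs, or 4.10 and 5.65% of the tumor library in gel 4 and 24.7 and 27.5% in gel 5. The part of tumor RNA in the levels of these 3 genes was not tested.

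Of the 16 other secreted regulators 9 were tested, and 3 were called higher and 4 lower, beside the same 25.9% and 22.9% of all genes. Rspo4 and Dkk1, 2 of the 3, passed the filter only through the co-cultured libraries, and Rspo2, 1 of the 4, only through the lone libraries. The R-spondins, which raise Wnt signals by sparing Frizzled receptors from degradation, moved apart. Rspo4 had 0 counts in all 4 tumor libraries and in both libraries of NFs without tumor cells, and it reached 5.09 to 9.05 CPM after co-culture, at least 29.3-fold higher in CD26- and 36.1-fold higher in CD26+ NFs. Rspo2 fell from 4.60 and 38.6 CPM to 0.115 to 0.667 CPM (-5.30 on the log2 scale, SE 0.569, adjusted p = 6.2e-05). The interaction of subset and culture was called for 1 of the 65 tested genes of these lists, Rspo3 (2.40, SE 0.376, adjusted p = 0.0144), beside 0.376% of all genes. With the gel as a replicate block 7 of the 65 were called, beside 2.43% of all genes, among them Notum (1.73, adjusted p = 0.000646) and Wnt11 (-2.14, adjusted p = 0.00114), which had adjusted p of 0.0903 and 0.0786 without the block and were chosen after their values were seen. The limit given above for the p-values of the block fit holds for these genes too. Rspo3 went from 19.6 to 1.70 and 1.44 CPM in CD26- NFs and from 34.8 to 16.5 and 13.6 CPM in CD26+ NFs.

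Of 21 receptors 19 were tested, with 4 higher and 10 lower, beside 25.9% higher and 22.9% lower of all genes tested. The R-spondin receptor Lgr5 fell from 48.9 and 19.4 CPM to 0.283 to 0.633 CPM (-6.24 on the log2 scale, SE 0.255, adjusted p = 2.3e-07), and Kremen1, a receptor for Dickkopf proteins, rose from 81.2 and 87.9 CPM to 302 to 502 CPM (2.26, SE 0.209, adjusted p = 2.5e-05). Lgr5 passed the filter only through the lone libraries. Of 12 other readouts and feedback genes 8 were tested, with 5 higher and 2 lower, beside the same shares of all genes. Tnfrsf19, with 0 counts in the tumor libraries, rose from 0.310 and 0.842 CPM to 11.2 to 27.3 CPM (5.04, SE 0.407, adjusted p = 1.13e-05), and Bambi fell by 1.29 on the log2 scale (SE 0.174, adjusted p = 0.000275). Tnfrsf19 and Rnf43, 2 of the 5, passed the filter only through the co-cultured libraries, so the count is a description. Znrf3 was lower as well (-0.74, adjusted p = 0.0243), and Nkd1 was not called (0.07, adjusted p = 0.784). Ccnd1, another of the 5, stood in co-cultured NFs at 8.21 to 23.1% of its level in the tumor cells of the same gel. The part of tumor RNA in the level of Ccnd1 was not tested. Beside the same shares, 3 of the 17 intracellular core genes were higher and 7 lower, led by Dvl1 (0.77, SE 0.146, adjusted p = 0.00209) and Tcf7l1 (-1.60, SE 0.136, adjusted p = 1.56e-05). The median log2 fold changes were 2.50 for ligands (2.35 with Wnt7a and Wnt7b at the bound that a count of 3 per lone library allows), 0.54 for other secreted regulators, -0.43 for receptors, 1.19 for other readouts and -0.21 for core genes, beside 0.02 over all genes tested. The ligand median includes Wnt2b, Wnt7a, Wnt7b and Wnt10a, which passed the filter only through the co-cultured libraries, so it is a description.

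**Figure D5:**
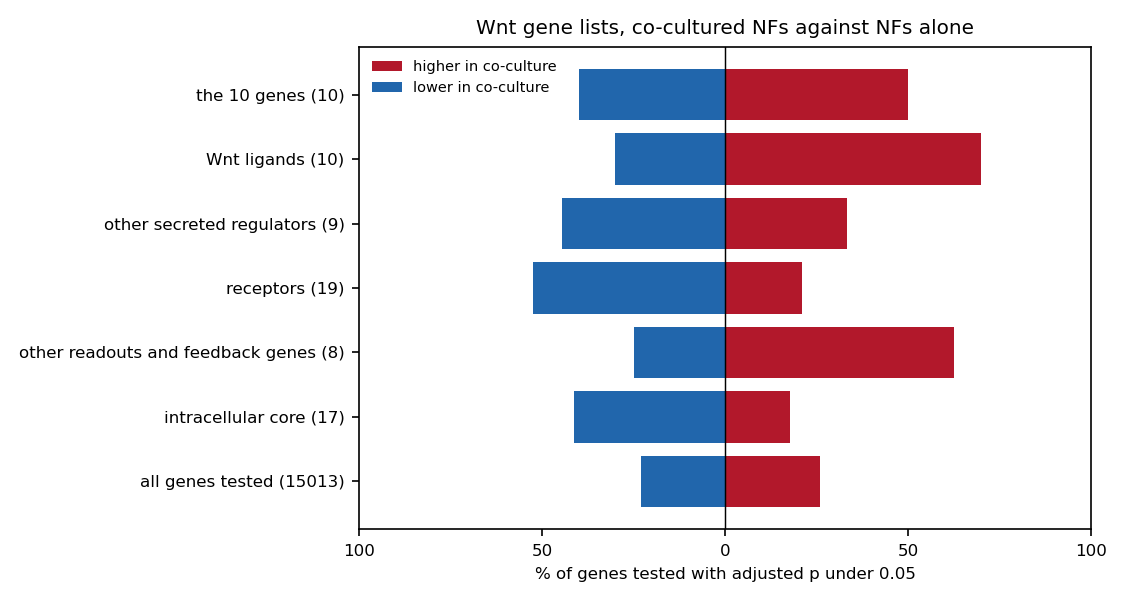
Share of the tested genes of each Wnt list called higher (red, right) or lower (blue, left) in co-cultured NFs than in NFs alone, across both subsets, with the number tested in parentheses. More ligands and readouts were called higher than lower, and more receptors lower than higher, beside 25.9% higher and 22.9% lower over all genes tested. The ligands Wnt2b, Wnt7a, Wnt7b and Wnt10a and the readouts Tnfrsf19 and Rnf43 passed the filter only through the co-cultured libraries, so the shares are a description. Of the other ligands Wnt2, Wnt9a and Wnt11 were higher and Wnt4, Wnt5b and Wnt16 lower. The 7 higher ligands include Wnt7a and Wnt7b, which in co-cultured NFs lay at 1.90 to 4.72% of their level in the tumor cells of the same gel, and Wnt10a, at 4.10 to 27.5%.

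Between the subsets over the 3 gels, 7 of the 63 tested genes of these 5 lists were called (11.1%), 4 of them receptors, beside 7.53% of all genes tested, and in co-culture 12 of 65 (18.5%), 4 of them among the 9 other secreted regulators, beside 6.01%. With the gel as a replicate block these counts were 11 of 63 (beside 8.87% of all genes) and 23 of 61 (beside 16.7%). The p-values of the block fit in co-culture have the limit given above. Over the 3 gels Wnt16 (1.65, SE 0.321, adjusted p = 0.0193) and Rspo3 (2.08, SE 0.424, adjusted p = 0.0229) were higher and Lgr5 (-1.28, SE 0.275, adjusted p = 0.0271) was lower in CD26+ NFs. Lgr5 had 48.9 CPM in CD26- and 19.4 CPM in CD26+ NFs of gel 1. Its co-cultured levels were near the floor, at 0.364 and 0.385 CPM in gel 4 and 0.633 and 0.283 CPM in gel 5. In co-culture it was not called (-0.74, adjusted p = 0.481). Ccnd1, which encodes cyclin D1, was higher (0.80, SE 0.124, adjusted p = 0.00827), and tumor libraries held 487 to 924 CPM of it against 28.3 to 133 CPM in NFs. In co-culture Rspo3, Wnt16 and Ccnd1 were the called genes with the highest fold change of their lists, at 3.09 on the log2 scale for Rspo3 (SE 0.249, adjusted p = 9.87e-06), 2.51 for Wnt16 (SE 0.367, adjusted p = 0.00124) and 0.78 for Ccnd1 (SE 0.172, adjusted p = 0.0161). Wnt4 (-1.22, SE 0.277, adjusted p = 0.019), Cthrc1 (-1.35, SE 0.298, adjusted p = 0.0162), Ror1 (-0.80, SE 0.217, adjusted p = 0.0464), Znrf3 (-0.93, SE 0.251, adjusted p = 0.0455) and Pygo1 (-0.99, SE 0.264, adjusted p = 0.0433) were the called genes with the lowest fold change of their lists. The receptor Ror1 and the ligand Wnt5a were both lower in CD26+ NFs of the shared gels and over the 3 gels, where Ror1 had -0.81 (adjusted p = 0.025). The related receptor Ror2 was not called in the shared gels (-0.096, adjusted p = 0.81) or over the 3 gels (0.11, adjusted p = 0.698).

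Several genes had a course over the 10 libraries close to that of one of the 10 described here. By Pearson's r of log2(CPM + 1), given as a description across NF and tumor libraries that form separate groups and share gels, the closest genes among 17038 were Cxcl12 and Dlx2 for Sfrp1, Dlk1 and Gabrg3 for Sfrp2, Bace2 and Zfp78 for Sfrp4, and Adcy2 and 6530402F18Rik for Frzb. For Dkk2 they were Lama2 and Fibin, for Dkk3 Trim35 and Slit3, for Wnt5a Ehhadh and Ripk3, for Axin2 Tro and Tfpi2, and for Lef1 H2-Ab1 and Col25a1. Each of these r lay between 0.992 and 0.999, and 5 (Frzb) to 233 (Dkk3) genes exceeded 0.99 for a single gene, so the nearest are little set apart from others. Wif1, with a mean under 1 CPM over the libraries, was not compared.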

How the data were processed

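RNA of 10 libraries was sequenced from TruSeq stranded mRNA libraries, and the authors deposited raw read counts per gene. The submitters' processing notes name HISAT2 2.2.1 and GRCm38; the counting program and its use of strand are not given in the sources used here, so reads of overlapping antisense genes cannot be told apart. Counts were divided by the library total (CPM). Tests used edgeR 4.0.16 in R 4.3.3 (TMM scaling, filterByExpr, quasi-likelihood F test, Benjamini-Hochberg over all genes tested, threshold 0.05) on the 6 NF libraries, the 4 tumor libraries or all 10, and were checked on simulated counts. DESeq2 1.42.0, other scaling, no filter, a fold threshold, the gel as block and left-out libraries were alternatives. The 10 genes and the lists were chosen with earlier results of these data known. Named list genes are the called gene with the largest rise and fall per list and comparison with a mean of at least 1 CPM. Cell type markers were fixed lists. Libraries of 1 gel share its number in the labels, and deviations from group means correlated at 0.264 between the subsets over 13490 genes. Exon lengths came from GENCODE M21, where 99.4% of gene identifiers were found. A further allele of the tumor lines is not reported here.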

Additional observations from a re-analysis of the deposited data

Results flagged for a closer look

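The response to co-culture differed between CD26+ and CD26- NFs, by the interaction term of edgeR's quasi-likelihood test, for 2 of the 10 genes, beside 0.376% of 16231 genes tested. The difference was 3.35 (log2) for Sfrp2 (adjusted p = 0.00621), with a higher CPM in CD26+ NFs in 2 of 2 gels with tumor cells and a lower CPM in the gel without them. It was -2.07 (log2) for Sfrp4 (adjusted p = 0.0124), with the opposite sides. Only 1 gel held NFs alone, so each difference rests on that gel.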

How the results depend on the processing

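Of 618 alternative values of single genes, 554 kept their direction and side of the threshold, 48 kept the direction and lost the call, 10 gained one and 6 changed sign. The sign changes were all in differences that were not called. With 1 gel or library left out, the log2 fold change between subsets over 3 gels ranged from -0.61 to 0.60 for Sfrp4 (negative without gel 1), from -0.80 to 0.094 for Dkk2 and from -0.0079 to 0.080 for Lef1 (each turned without gel 5). For Lef1 in co-culture it ranged from -0.11 to 0.23, turning without the CD26- library of gel 4 (-0.04) or the CD26+ library of gel 5, and for Dkk2 between cultures in CD26+ NFs from -0.25 (without their gel 5 library) to 0.25. With the gel as a replicate block the number of the 10 genes called rose to 7 for the subsets in co-culture (beside 16.7% of all genes) and to 4 for the interaction (beside 2.43%), and no other call of the 10 genes changed in those paired fits. For the subsets in co-culture and for the interaction, the block terms use up most of the libraries. The p-values of these block fits thus rest mostly on spread borrowed over all genes. Asking in addition for an absolute log2 fold change above 2, as the study did, left 0 genes between subsets over 3 gels and 1 in co-culture. With 1 gel or library left out, called genes numbered 0 to 3 between subsets over 3 gels, 0 to 3 in co-culture and 0 to 2 for the interaction (where edgeR called 0, 3 to 7 had an unadjusted p under 0.05); a lone library is then assumed to vary like the other groups, and fewer samples enter the fit. Over all genes, the interaction gave 61 calls, 18 with no filter, 97 with DESeq2 and 395 with the block, and the subsets in co-culture gave 975, 603 with no filter and 2407 with the block. Between subsets over 3 gels, 1130 genes were called and 17 without gel 5.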
